A study of Mus musculus with 2 samples.

Results

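Internal alternative promoters are transcription start sites that lie inside a gene, well downstream of its first annotated start. Accessibility at such sites was examined in the cortex of the left cerebral hemisphere. The tissue came from 2 mice of the strain B6CASTF1/J (an F1 cross between C57BL/6J and CAST/EiJ), both female, 14 days old and with no treatment named in the labels. Each animal gave 1 DNase-seq library, an assay that reads where DNase I cuts open chromatin, and both libraries form 1 group. A start site was internal when it belonged to a protein-coding gene, lay over 10 kb downstream of the gene's most 5' start and was over 5 kb from any start of another gene. Starts of 1 gene whose windows of 500 bp on either side overlapped were joined into 1 site, so 19858 start positions of 20729 transcripts gave 15273 internal start sites in 6890 genes. A member is an internal start site with a DNase I hypersensitive site (DHS, called as a peak) in both libraries. There were 1589 members, 10.4% of the internal start sites, in 1325 genes. They drew on 2157 of the 90059 peaks of replicate 1 and 2376 of the 175597 peaks of replicate 2.

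Most mammalian genes have more than a single promoter, and in the brain the choice between them can decide which protein form is made. An internal promoter usually skips the upstream exons, so its transcript can encode a protein without the amino-terminal domains, as with the kinase-only form of doublecortin-like kinase. At a promoter in use, the stretch just upstream of the start is free of nucleosomes and cut by DNase I. Promoters of broadly used genes often lie in CpG islands, whereas enhancers and many tissue-restricted promoters are poor in CpG.

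The stretches of 8 member DHSs that lie upstream of their start sites, up to 200 bases each and outside annotated UTRs, show the range of sequence behind the values that follow. Those of Kalrn and Ppargc1a stop short of the start sites, which are at 34263193 and 51553891. The others adjoin theirs. They were chosen for genes with well-known internal promoters (Dclk1, Kalrn, Pde4d, Shank2, Ppargc1a), for a motif match near the start (Iqsec1, Trak1) or for a CpG-rich site in a gene with no peak at its first start (Stag1). Each runs 5′ to 3′ on the strand of the gene, in coordinates of mm10, and was read from the RefSeq genome of GRCm38.p6. The Kalrn stretch lies in the highest peak of replicate 2 and outside that of replicate 1. Capitals mark matches to the motifs searched. These are CCAAT or its reverse complement (Pde4d, Iqsec1, Stag1), AP-1 (Dclk1), SP/KLF (Kalrn, Pde4d), a TATA box match on the other strand that overlaps a MEF2 match (Shank2), RFX (Iqsec1), the cyclic AMP response element, CRE (Trak1, Ppargc1a), and the CAGCTG E-box (Trak1).
Dclk1, chr3:55461681-55461727, plus strand: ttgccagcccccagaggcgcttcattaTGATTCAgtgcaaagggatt
Kalrn, chr16:34263201-34263380, minus strand: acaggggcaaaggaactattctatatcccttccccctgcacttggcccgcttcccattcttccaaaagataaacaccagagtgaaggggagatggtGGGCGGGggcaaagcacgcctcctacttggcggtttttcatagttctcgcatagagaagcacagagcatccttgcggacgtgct
Pde4d, chr13:109926681-109926843, plus strand: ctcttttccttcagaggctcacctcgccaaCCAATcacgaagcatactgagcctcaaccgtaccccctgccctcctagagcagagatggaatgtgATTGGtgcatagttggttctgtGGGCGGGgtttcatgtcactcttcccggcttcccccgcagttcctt
Shank2, chr7:144175421-144175528, plus strand: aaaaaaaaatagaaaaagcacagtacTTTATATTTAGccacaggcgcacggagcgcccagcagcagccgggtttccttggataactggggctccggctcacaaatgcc
Iqsec1, chr6:90810124-90810323, minus strand: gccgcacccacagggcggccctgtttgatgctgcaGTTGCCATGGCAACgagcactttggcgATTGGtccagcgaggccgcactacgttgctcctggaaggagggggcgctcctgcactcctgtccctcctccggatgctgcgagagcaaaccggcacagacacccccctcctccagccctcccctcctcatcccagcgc
Trak1, chr9:121403281-121403477, plus strand: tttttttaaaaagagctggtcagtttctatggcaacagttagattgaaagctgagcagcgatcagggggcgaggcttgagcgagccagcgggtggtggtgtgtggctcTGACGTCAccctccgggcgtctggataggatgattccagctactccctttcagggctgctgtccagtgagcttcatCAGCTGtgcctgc
Ppargc1a, chr5:51553923-51554079, minus strand: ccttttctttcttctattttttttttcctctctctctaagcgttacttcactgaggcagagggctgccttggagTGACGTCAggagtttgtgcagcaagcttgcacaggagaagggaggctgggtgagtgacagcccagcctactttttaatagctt
Stag1, chr9:100643248-100643447, plus strand: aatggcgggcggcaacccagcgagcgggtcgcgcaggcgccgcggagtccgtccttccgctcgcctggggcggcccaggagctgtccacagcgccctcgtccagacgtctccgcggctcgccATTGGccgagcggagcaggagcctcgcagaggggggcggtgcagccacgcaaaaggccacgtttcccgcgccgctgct

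The 200 bases of Stag1 hold 28 CpG sites and the 180 bases of Kalrn hold 7, whereas the 157 bases of Ppargc1a hold 2. Stag1, a cohesin subunit, has a site rich in CpG. Ppargc1a, a coactivator of mitochondrial genes, and Dclk1, a microtubule-binding kinase, have sites poor in CpG.

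An internal start site carried a DHS less often than the first start of the same genes and more often than gene-body DNA nearby. In replicate 1, 1659 internal sites (10.9%, Wilson 95% interval 10.4 to 11.4) had a peak, and in replicate 2 2495 sites did (16.3%, 15.8 to 16.9). Only 70 sites had a peak in replicate 1 alone, 906 in replicate 2 alone, and 12708 (83.2%) in neither. Of the most 5' starts of the same 6890 genes, 4990 (72.4%) had a DHS in both libraries, with 73.8% in replicate 1 and 76.4% in replicate 2. Each internal window was then moved 5 kb downstream and kept where it stayed inside the gene with no start within 1 kb. This left 11592 windows, whereas the internal shares above cover all 15273 sites. Of the windows kept, 446 (3.85%) held a DHS in both libraries, with 4.11% in replicate 1 and 8.68% in replicate 2. The order of the 3 classes was the same in each library. All intervals cover counting error only. There is no test between groups, and with 2 libraries of 1 group no p-value was computed.

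**Figure D1:**
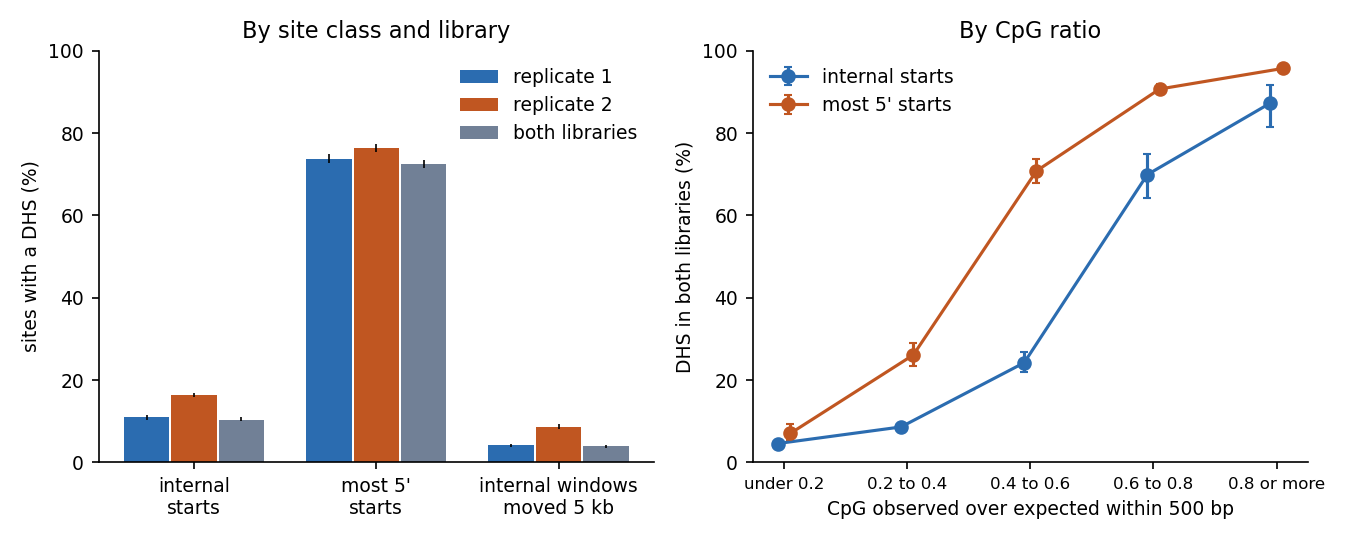
Left: the percent of sites with a DHS in replicate 1, replicate 2 and both libraries, for internal starts, the most 5' starts of the same genes and internal windows moved 5 kb downstream. Right: the percent with a DHS in both libraries by the CpG ratio around the start. Error bars are Wilson 95% intervals; internal starts rise from 4.57% to 87.3% across the CpG ranges and the most 5' starts from 7.01% to 95.7%.

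The kind of transcript annotated at a site went with its accessibility. Sites where a complete protein-coding transcript starts were members in 905 of 3160 cases (28.6%). Sites with only other non-coding transcripts, or transcripts marked for nonsense-mediated decay, were members in 342 of 4343 cases (7.87%). Where every transcript was a retained intron the count was 256 of 5346 (4.79%), and where the true start is annotated as not found it was 86 of 2424 (3.55%). The last share lay below the 3.85% of the moved windows, and that of retained introns just above it. The number of annotated transcripts went the same way. Members were 6.75% of sites where 1 transcript starts, 16.4% where 2 start, 33.3% where 3 or 4 start and 62.4% (179 of 287) where 5 or more start. A site of several joined start positions also has a wider window, and the part of width in this rise was not tested. Sites within an intron of an upstream transcript were members in 1329 of 9272 cases (14.3%), against 257 of 5989 (4.29%) for sites within an exon.

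Members were richer in CpG than silent sites, with overlap. The CpG ratio sets the number of CpG dinucleotides within 500 bp of the start against the number that the C and G content would give. Its median was 0.345 at members, 0.228 at internal sites with no peak in either library, 0.768 at most 5' starts with a DHS and 0.225 at shared intronic DHSs over 1 kb from any start. For the intronic DHSs the 500 bp were taken around the midpoint of the DHS, since no start lies there. The middle 50% of members ran from 0.241 to 0.534 and that of sites with no peak from 0.164 to 0.30. Of internal sites with a ratio under 0.2, 250 of 5474 (4.57%) were members, and of those with a ratio of 0.8 or more, 145 of 166 (87.3%) were. At intermediate ratios of 0.4 to 0.6, 24.2% of internal sites had a DHS in both libraries against 70.8% of the most 5' starts. Only 338 of 1589 members (21.3%) nevertheless had a ratio above 0.6, against 80.6% of most 5' starts with a DHS. CpG-rich members had higher peaks. Their median signals were 1.73 and 1.44 in replicates 1 and 2, while those of the 947 members with a ratio under 0.4 were 0.771 and 0.866. The signal is the authors' height of each peak, for which no unit is stated.

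Distance from the first start had less to do with it. Members were 9.94% of sites 10 to 20 kb downstream of the first start, 9.06% at 20 to 50 kb, 10.3% at 50 to 100 kb, 11.7% at 100 to 200 kb and 15.2% (205 of 1347) beyond 200 kb. The median member lay 45692 bp from the first start. At the edge of the distance rule, Slc38a3, a glutamine transporter, had signals of 0.994 and 1.09 in replicates 1 and 2 at a start just over 10 kb downstream. Fpgs, which adds glutamate to folates, had 4.41 and 3.85 in a peak that overlaps the windows of a start just over 10 kb and of another at 9.96 kb, the latter outside the rule. Cc2d2a, a ciliary gene, fell outside at 9.94 kb with 2.27 and 2.20.

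Member DHSs sat over or just upstream of the annotated start. The midpoint of the highest peak lay at a median of -29 bp from the nearest start in replicate 1 and -33 bp in replicate 2, where negative is upstream. It was upstream in 60.2% and 63.2% of members, and within 150 bp of the start in 59.8% and 59.2%. At most 5' starts with a DHS the medians were -30 and -34 bp, with 71.4% and 71.0% within 150 bp. There the midpoint was measured from the most 5' start alone. At members the nearest of the joined starts was used, so the 2 measures are not alike. The highest peaks of the libraries overlapped each other in 1517 of 1589 members (95.5%). At the others, the value of each library comes from a different peak in the window. Of the sites given or plotted below, these are Kalrn at 310.3 kb, Gnas at 45.7 kb, the lowest member of Pde4d, Fgf12, Tshr and Cacna1c. The position differed with the kind of transcript. Its middle 50% ran from -91 to 32 bp at members with a complete coding transcript, and from -247 to 222 bp at members with retained introns only (replicate 1).

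**Figure D2:**
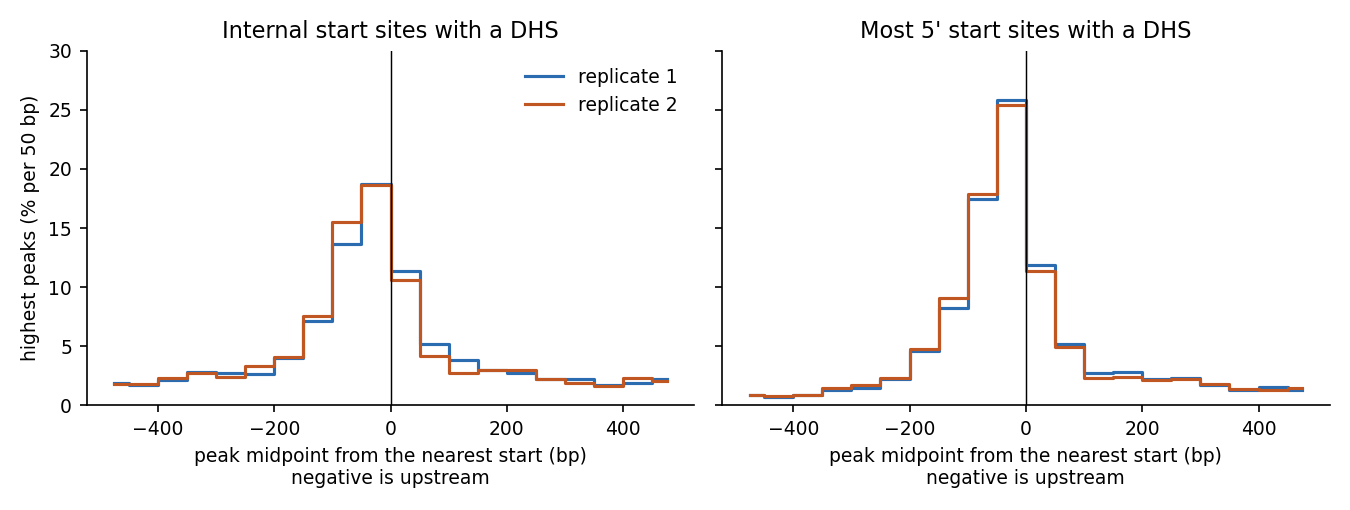
Midpoint of the highest peak relative to the annotated start in bp, as a percent of sites per 50 bp, with 1 line per library. Left: the 1589 members, measured from the nearest of the joined starts. Right: the 4990 most 5' starts with a DHS, measured from the most 5' start alone. Both classes peak in the 50 bp upstream of the start, and members have more of their peaks far from it.

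Where a gene had a DHS at both places, the first start was usually the higher. There were 859 such genes. The most 5' start was higher in both libraries in 542 of them, the internal site was higher in both in 218 (25.4%), and in 99 the order differed between libraries. The median log2 ratio of the highest internal signal over the first-start signal was -0.96 in replicate 1 and -0.61 in replicate 2. Averaged over libraries, its quartiles were -1.80 and 0.27. Median signal was 0.917 and 0.966 at members in replicates 1 and 2, 2.51 and 2.07 at most 5' starts with a DHS, and 0.670 and 0.772 at shared intronic DHSs. In tissue, a DHS open in few cells and a DHS weakly open in many cannot be told apart.

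**Figure D3:**
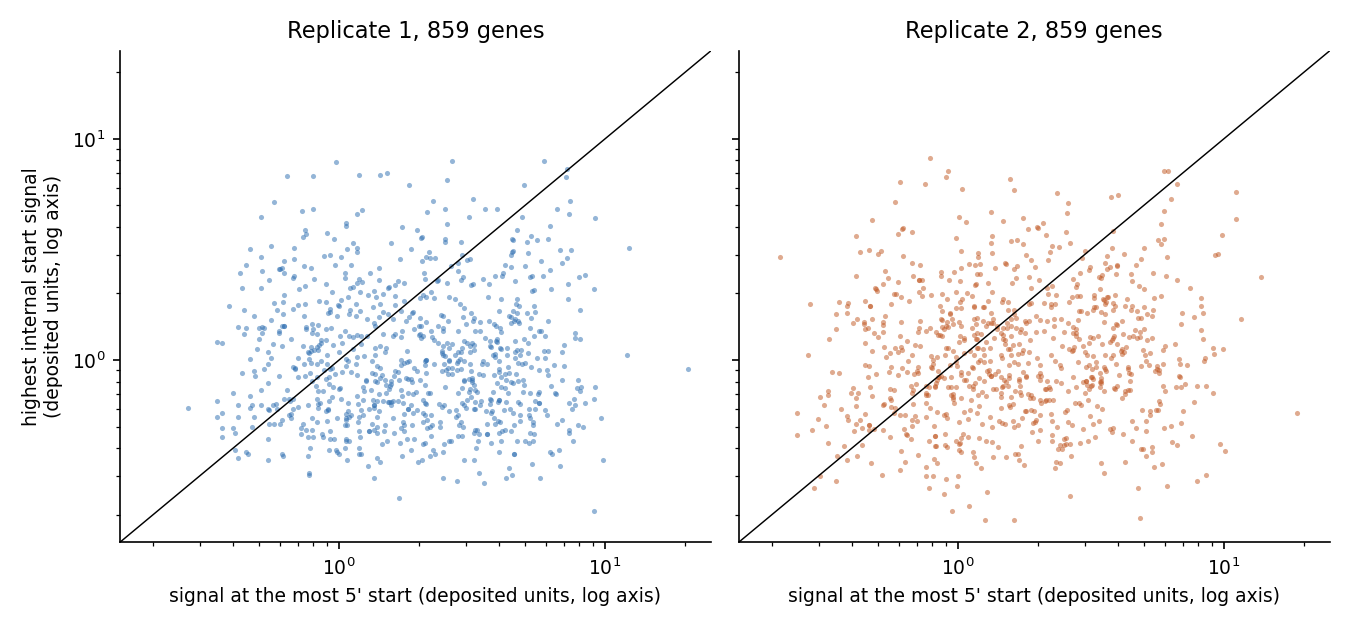
Signal of the highest internal site against that of the most 5' start, both on log axes in the deposited units, for 859 genes with a DHS at both in both libraries. Each point is a gene and the line marks equal signal; points above it are genes whose internal site was higher.

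In 366 of the 1325 genes with a member, the most 5' start had no peak in either library. Of all 6890 genes with an internal site, 1531 (22.2%) had none there. Over all genes with no peak at the first start, with or without a member, 444 of 3045 internal sites (14.6%) were members, against 1017 of 11438 (8.89%) in genes with a DHS at the first start in both libraries. In 292 of the 366 genes no start within 10 kb of the first had a peak either. The 444 members had a median CpG ratio of 0.416, against 0.320 for the 1017, and 31.8% against 16.3% lay above 0.6. More transcripts started at the member than at the first start in 43.0% of them against 21.4%. Where a complete protein was annotated, it was as long as the longest of the gene in 166 of 297 (55.9%) against 207 of 530 (39.1%).

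The most 5' annotated start need not be the main promoter of a gene, and internal here means only downstream of it. At the highest members of this kind many of the gene's transcripts start at the internal site, and at Kat6b, Aktip, Glo1 and Stag1 it encodes the longest protein of the gene. Kat6b, a histone acetyltransferase, had signals of 9.02 and 10.9 in replicates 1 and 2 at a site 18.3 kb downstream where 8 of its 14 transcripts start. Aktip, which takes part in vesicle traffic, had 9.06 and 10.3 at 65.5 kb, with 9 of 13 transcripts. Glo1, the glyoxalase that detoxifies methylglyoxal, had 9.07 and 8.72 at 14.2 kb, with 6 of 10. In all 3 the libraries differed by 1.21-fold or less. Stag1 had 7.71 and 6.57 at 45.6 kb, with 10 of 17 transcripts, at the CpG-rich sequence printed above. Others of the 10 highest were Ndel1, a dynein regulator, Hint3, Dcun1d4, Anapc15, a subunit of the anaphase-promoting complex, and Cyb5a, cytochrome b5, with mean signals from 5.66 to 6.86.

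Several of the highest members did have a peak at the first start. Hdac4, a class IIa histone deacetylase, was the highest of all with 10.8 and 9.90 at 15.4 kb, and its first start had a peak of 0.513 in replicate 2 alone. Ppp2r3d, annotated as a phosphatase 2A regulatory subunit, had 8.50 and 9.55, with a first-start peak of 0.577 in replicate 2 alone; the midpoints of its internal peaks lay at -516 and -486 bp. Bicdl1, a dynein adaptor gene, had 7.88 and 8.16 at 78.6 kb, against 0.971 and 0.787 at its first start. Hmgb1, a chromatin protein, had 7.97 and 7.17 inside and 5.89 and 5.98 at the first start, and E4f1, a transcription factor, had 7.32 and 7.15 against 7.20 and 6.19. Pick1, a synaptic PDZ protein, had 7.02 and 7.12, but only a retained intron starts there and the midpoint of the peak in replicate 2 lay 422 bp downstream of it.

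Most genes had a single member, with 1115 genes at 1, 167 at 2 and 43 at 3 or more. Pde4d, a cyclic AMP phosphodiesterase known for many promoters, had the most with 6, spread from 666.3 to 1476.9 kb downstream of its first start. Its highest, at 1476.9 kb, had 3.17 and 3.71 and starts a form of 517 residues out of 803. The other 5 ranged in mean signal from 0.444 to 1.19. The first start of Pde4d had 0.462 and 0.597, so the highest internal site stood above it in both libraries. Abr, a regulator of small GTPases, had 5 members, the highest with 4.42 and 3.09 at 44.6 kb, against 0.509 and 0.428 at the first start. The midpoint of that peak lay at -333 bp from the start in replicate 2. Trak1, a mitochondrial transport adaptor, had 4 members with mean signals from 0.887 to 3.44, the highest at the CRE match printed above with 2.95 and 3.93. Phactr3, Usp10, Tenm4, Dlg2 and Rasal2 also had 4 each. Iqsec1, an exchange factor of the postsynapse, had 3. Its highest site, at 178.6 kb, had 4.67 and 5.13 against 2.15 and 2.59 at the first start, and encodes the full 1099 residues.

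Genes with well-described internal promoters were members more often than the background of internal sites. Of 40 genes listed, 38 were found in the annotation under the symbols used, and 36 had an internal start site. Of these 36, 27 had a member, against 1325 of all 6890 genes (19.2%). The listed genes hold more internal sites each, with 168 in 36 genes against 15273 in 6890, which gives each more places for a member. By site the count was 55 of 168 (32.7%) against 10.4% of all internal sites, with a median mean signal of 0.939 against 0.951. The list was written with earlier results of these data known.

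Nrxn2 and Nrxn3, which encode presynaptic adhesion proteins, had a DHS at an internal site far downstream. At Nrxn2 the site in intron 17 had 1.55 and 1.63, below the 3.21 and 3.07 of the first start, and encodes 660 of 1710 residues. At Nrxn3 the site in intron 13 had 1.30 and 1.38, below 2.00 and 1.73, and encodes 567 of 1571 residues. Each also had a second member nearer the first start, with mean signals of 0.853 and 0.332.

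Among signalling genes of the list, Dclk1 had 2.90 and 3.35 at a site 219.4 kb downstream that starts 7 of 15 transcripts and encodes 452 of 756 residues. Its first start had 2.20 and 1.76, lower in both libraries. Kalrn, an exchange factor that acts in dendritic spines, had 1.31 and 1.62 at 59.4 kb, against 2.02 and 1.63 at the first start. Its site at 310.3 kb, which encodes 1022 of 2964 residues, had a highest peak of 1.25 in replicate 1 and a different one, of 1.45, in replicate 2. Pde4b, a second cyclic AMP phosphodiesterase, had 3 members, the highest with 1.02 and 1.19. Prkcz, an atypical protein kinase C, had 1.29 and 0.692 in intron 14, but no complete coding transcript is annotated there and the midpoint of the peak lay at -335 bp in replicate 2. Bdnf, the neurotrophin whose exons each have a promoter of their own, had 1.33 and 1.49 with no peak at the first start. That peak's midpoint lay 551 bp downstream of the nearest start and touched the window only at its edge. Gnas, the imprinted gene of the stimulatory G protein, had 1.68 and 1.27 at a site with 6 transcripts, above the 0.586 and 0.503 of the first start.

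Ankyrins and Shank scaffolds of the list had mean signals up to 3.39 at their internal sites. Ank2, an ankyrin of axons, had 3.20 and 3.57 at 90.3 kb against 1.17 and 0.986 at the first start, and 2 lower members. Ank3, ankyrin-G of the axon initial segment, had 1.63 and 2.26 at a site where 14 of 47 transcripts start, with no peak at the first start. Shank2 and Shank3 are scaffolds of the excitatory postsynapse. Shank2 had 3 members, with 2.18 and 2.81 in intron 22, 1.13 and 1.42 in intron 14, and 1.22 and 1.26 in intron 10, and no peak at the first start. The site in intron 10 encodes 1472 of 1841 residues and that in intron 14 encodes 1262. Shank3 had 2.33 and 2.35 in intron 16, above the 0.670 and 0.548 of the first start, and 2.35 and 1.11 in intron 12, where the libraries differed. Map4, a microtubule-binding protein, had 2.07 and 2.46 against 5.43 and 4.47 at the first start.

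Lower on the list, Dmd, the dystrophin gene, had 0.694 and 0.782 in intron 44 and 0.432 and 0.304 in intron 62, where the short form of 617 of 3678 residues starts, and no peak at the first start. Oprm1, the mu opioid receptor, had 0.493 and 0.274 at the site where 22 of 31 transcripts start. Fgf12, Fgf13 and Fgf14, intracellular regulators of sodium channels, had best means of 0.460, 0.373 and 0.788. Rims2 of the active zone had 0.909 and 0.657 in intron 5 and 0.786 and 0.662 in intron 22. Agrn had 0.971 and 0.607, Nrg1 0.670 and 0.413, Ptprr 0.432 and 0.498, and Ppargc1a 0.516 and 0.368. Auts2 had 1.43 and 1.02 at its higher site. Several of these peaks lay well away from the nearest start, with midpoints at 602 and 462 bp for Fgf14, -359 and -351 bp for Nrg1, 412 and 404 bp for Ptprr and 387 and 377 bp for Auts2. Dlg2, a postsynaptic scaffold, had 4 members with means from 0.414 to 0.991, all below the 5.29 and 5.06 of its first start. No internal site of Ank1, Mitf, Pax6 or Rims1 had a peak in either library.

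**Figure D4:**
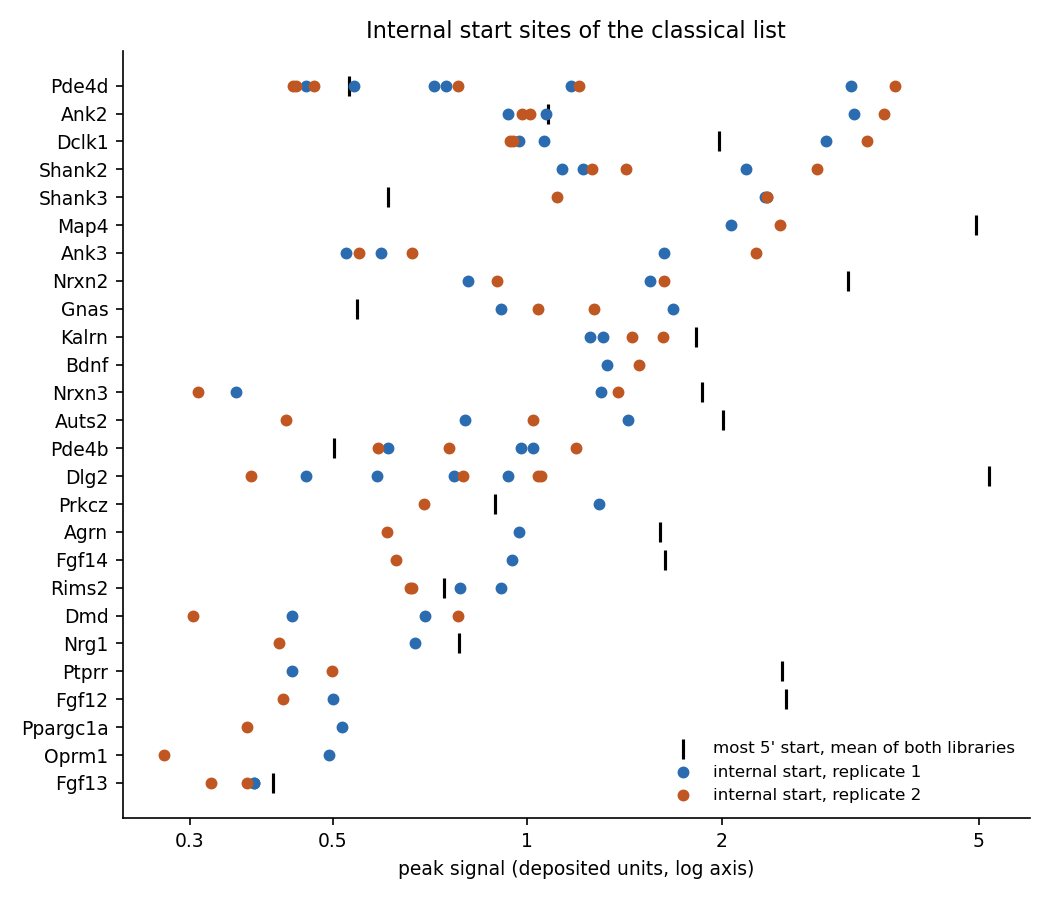
Peak signal (deposited units, log axis) at members of the list of well-described internal promoters, with replicate 1 in blue and replicate 2 in orange; a black bar gives the mean at the gene's most 5' start where both libraries had a peak. Pde4d, Ank2, Dclk1 and Shank3 have an internal site above the bar, and Map4, Dlg2, Ptprr and Fgf12 lie below it.

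Shares differed among the other gene lists, which share some genes. Postsynaptic scaffolds had 29 members of 113 internal sites (25.7%), led by Iqsec1. Cnksr2 and Dlg3 had internal sites without any peak. Kinases, phosphatases and phosphodiesterases had 39 of 170 (22.9%), led by Src with 4.37 and 3.62, although the midpoint of that peak in replicate 2 lay 555 bp downstream of the start. Camk2d and Dgkh had none. Neural transcription factors had 25 of 131 (19.1%), led by Tcf4, a bHLH factor, with 3.0 and 3.55 at a site with 11 of 62 transcripts, and by Creb5 with 1.61 and 2.46. Bcl11a and Ebf1 had none. Adhesion and axon guidance genes had 35 of 184 (19.0%), led by Ptprs, a receptor phosphatase, with 4.04 and 4.70. Adgrl1 and Adgrl2 had none.

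Cytoskeletal genes had 45 of 242 (18.6%), led by Ank2 and Dclk1, with no peak at the internal sites of Add1 and Add2. Exchange factors and activators of small GTPases had 34 of 205 (16.6%), led by Iqgap1 with 3.0 and 3.72 and Arhgef2 with 1.83 and 2.45, both without a peak at the first start. Agap3 and Arhgap26 had none. Ion channels had 18 of 114 (15.8%). Cacna1a, a presynaptic calcium channel, led with 4.01 and 3.37, at a peak 579 bp from the nearest start in replicate 2, and Scn2a, a sodium channel of axons, followed with 2.30 and 2.92 against 1.41 and 1.19 at its first start. Cacna1h and Cacna1i had none. Presynaptic release genes had 12 of 92 (13.0%), though 30 of their 31 genes had a DHS at the first start. Ppfia3 led with 2.40 and 3.54, but only a retained intron starts there and the midpoints lay at -320 and -300 bp, while Amph and Bsn had none.

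Neurotransmitter receptors had 2 members of 37 internal sites (5.41%), Oprm1 among them, while 21 of 24 genes had a DHS at the first start. Chrm3 and Chrna4 were among those without a peak inside. Of the lists for other cells, astrocyte genes had 7 of 44 (15.9%), with Cpe at 1.93 and 1.55 and Slc4a4 at 0.724 and 1.18, and Acsl3 without. The midpoint of the Cpe peak lay at -563 bp in both libraries, at the edge of the window, and no complete coding transcript starts there. The midpoints at Slc4a4 lay at -412 and -432 bp. Oligodendrocyte lineage genes had 4 of 48 (8.33%), with Enpp2 at 1.32 and 1.38 and Tns3 at 0.848 and 0.866, and Bcas1 and Cntn2 without. Microglia and vascular genes had 1 of 27 (3.70%), Inpp5d with 1.39 and 1.59, and Ebf1 and Erg without. Genes of muscle, liver and blood had 4 of 87 (4.60%), with Neb at 1.27 and 1.10, then Dmd, and Abcc2 and Actn2 without. Only 34.4% of that last list and 28.6% of the microglia and vascular list had a DHS at the first start, against 72.4% of all genes. These are counts, and no test sets a list apart.

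**Figure D5:**
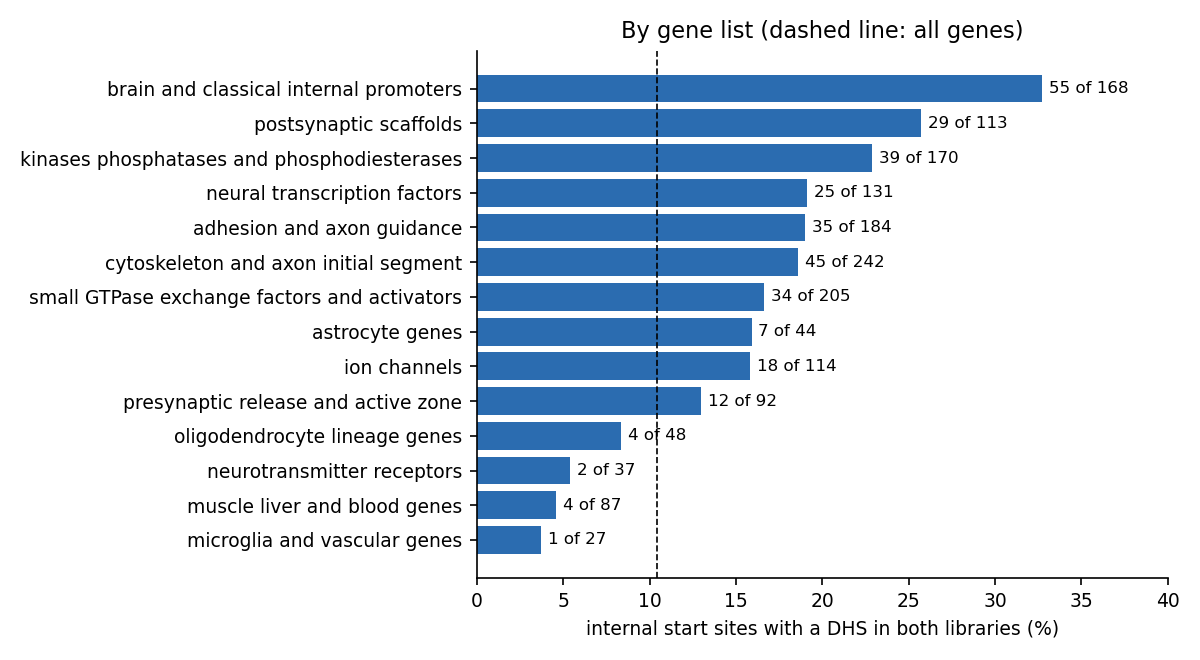
Percent of internal start sites with a DHS in both libraries for each gene list, with the counts beside the bars; the dashed line is the 10.4% of all internal start sites. The list of well-described internal promoters reaches 32.7% and microglia and vascular genes 3.70%.

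Promoter motifs such as SP/KLF were found less often in member DHSs than at first starts, and more often than in intronic DHSs. Motifs were searched on both strands within 150 bp of the midpoint of the higher peak. SP/KLF (GGGCGGG) was found in 334 of 1589 members, 51.8% of most 5' starts with a DHS and 4.60% of shared intronic DHSs. ETS (CCGGAAG) was in 4.15%, 17.6% and 1.75%, and NRF1 in 0.755%, 2.61% and 0.0934%. EGR (GCGGGGGCG) was in 3.34%, 7.23% and 0.245%, and CRE (TGACGTCA) in 1.51%, 3.93% and 0.525%. Its core (TGACG), which every CRE match contains, was in 20.3%, 34.6% and 13.3%. The E-box CAGATG, AP-1, CTCF and MEF2 ran the other way. The E-box CAGATG was in 24.4% of members, 9.14% of most 5' starts and 32.0% of intronic DHSs, AP-1 (TGANTCA) in 9.44%, 2.79% and 13.5%, CTCF in 5.48%, 2.32% and 9.07%, and MEF2 in 2.45%, 0.741% and 4.00%. The E-box CAGCTG was about as frequent in members (26.1%) as in intronic DHSs (26.3%), against 16.2% at first starts, and CCAAT, in 30.4%, 37.8% and 31.3%, was lowest in members. SP/KLF and EGR matches can overlap. The strict RFX and NFI consensus sequences matched 3 members each, and that of REST matched 0, which says only that these letters are not in the windows.

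Part of that order went with CpG content. Among sites with a CpG ratio under 0.4, SP/KLF was in 7.18% of members and 15.2% of most 5' starts with a DHS, AP-1 in 11.2% and 10.1%, and CAGCTG in 30.7% and 28.3%. CAGATG was in 31.4% and 21.5%. A TATA box (TATAAA) lay 20 to 40 bp upstream of the start in 15 members (0.944%), 110 internal sites with no peak (0.866%) and 16 most 5' starts with a DHS (0.321%). A match here is a string of letters and not a measured binding site.

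Footprints, short stretches the authors called as protected from cutting, were found in most member DHSs. The highest peak held a footprint in 89.4% of members in replicate 1, 97.0% in replicate 2 and 87.6% in both. The share in both was 95.5% at most 5' starts with a DHS and 80.3% at shared intronic DHSs. It followed peak height. At a mean signal under 0.5 it was 55.1% of members, 54.8% of most 5' starts and 50.8% of intronic DHSs, and at 1 to 2 it was 98.9%, 99.1% and 98.0%. All 285 members above a mean signal of 2 had one in both libraries. The median member had 2 footprints in replicate 1 and 3 in replicate 2.

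Of the 905 members with a complete coding transcript, 413 (45.6%) encode a protein as long as the longest of the gene. In 193 (21.3%) the annotated protein is under 50% of the longest.

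Signals at members went together in the libraries. Across members, which are not independent replicates and have a peak in both libraries by the rule, the log2 signals had a Pearson correlation of 0.893, against 0.959 at most 5' starts with a DHS and 0.891 at all shared DHSs. At members the log2 ratio of replicate 2 over replicate 1 had a median of -0.01 and an SD of 0.47. Of members, 56 (3.52%) differed by more than 2-fold, against 5.00% of the 78165 shared DHSs. Among members above the median by mean signal, the 5 furthest towards replicate 2 were Dpy19l3, with 0.563 and 1.89 (3.35-fold), Atf7ip, Pkia, Slc13a4 and Tshr, the thyrotropin receptor. The values of Tshr, 0.285 and 1.67, belong to peaks that do not overlap, so their ratio is not that of a single DHS. Those furthest towards replicate 1 were Col26a1, a collagen gene, with 2.70 and 0.871 (3.10-fold), then Stk10, Kdm2b and Fgd5, and Cacna1c, whose 1.5 and 0.592 likewise belong to different peaks. Internal sites with a peak in replicate 2 alone had a median signal of 0.423, near the lower end of the members.

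Markers of the tissue were checked at promoters. Of 11 markers of cortical neurons, 5 had a DHS at the most 5' start in both libraries and 8 at any start, against 12062 and 13333 of 21938 protein-coding genes. The counts at the most 5' start were 3 of 4 for astrocytes, 2 of 4 for the oligodendrocyte lineage, 2 of 4 for microglia, 0 of 4 for endothelium and 2 of 8 (Hoxb5 and Myh7) for hindbrain, liver and muscle. At any start the oligodendrocyte lineage had 3 of 4, and the counts of the other classes were those at the most 5' start. The part of each cell type in the internal DHSs was not tested.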

How the data were processed

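DNase-seq libraries of 2 animals were used as deposited. The authors called peaks and footprints per library from its alignments to mm10, without pooling, per the labels and deposited notes. The sources used here do not name the aligner or callers. The peak value is the deposited signal, for which the authors state no unit, and read depth is unknown. The deposited segments of significant cleavage carry a q-value of at most 0.05, and the deposited footprints a constant p-value column, so footprints were used as present or absent. The labels number the animals as biological replicates under 1 donor record.

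Of the 2 peak lists per library, the larger was used. Start sites came from GENCODE M21, and the files' peaks ended within the chromosome lengths of GRCm38.p6. A site had a DHS when a peak overlapped its window of 500 bp on either side by at least 1 bp, and its signal was the highest peak there. A window at a most 5' start can pick up a neighbouring gene's peak. Shared DHSs are regions with a peak of each library. The members, gene lists, motifs and naming rules were chosen with earlier results of these data known. The rule named the 10 highest members, the 10 highest in genes without a peak at the first start, the 10 genes with the most members, the list of well-described internal promoters, 2 members and 2 genes without a peak per other list, the 5 largest ratios between libraries in each direction above the median signal, and the sites next to the 10 kb limit. A few genes so selected are not reported here. Coordinates are 1-based. The overlap, start-site, shift and CpG functions were tested on simulated data. Python 3.11.15, NumPy 2.4.6, pandas 2.3.3, Numba 0.67.0 and Matplotlib 3.10.9 were used. Alternatives covered the peak list, window, distances, transcript set, overlap, repeated 31-mers and each library alone.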

Additional observations from a re-analysis of the deposited data

How the results depend on the processing

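No test was run, and a value is called moved when it changed by at least the SD between libraries, or a count by over 1.5 times. Of 110 values recomputed under alternatives, 74 did not move by that measure. Only the log2 ratio could change direction, and it stayed negative under every alternative. The measure is wide for the internal share (SD 3.87 percentage points) and the moved windows (SD 3.23), whose shares went from 10.4% and 3.85% to 7.05% and 2.24% with the stricter peak list, 8.64% and 2.33% with windows of 250 bp and 13.7% and 6.74% with 1 kb. It is narrow for the log2 ratio, where the SD of 0.06 is between libraries taken alone with their own genes; over the 859 shared genes it was 0.25, more than the changes from -0.76 to -0.66, -0.68 or -0.60. With the stricter list the share of most 5' starts with a DHS was 66.2%, the median log2 ratio of internal over first-start signal -0.66, the median CpG ratio of members 0.389 and the footprint share 95.3%. With the same number of top peaks taken from each library the first-start share was 68.3% and the footprint share 92.2%. With windows of 250 bp the first-start share was 68.9%, the log2 ratio -0.68 and the CpG ratio 0.380, and with 1 kb the first-start share was 75.4% and the CpG ratio 0.314. Over 5 kb from the first start the first-start share was 69.7%, and over 20 kb it was 74.2% with 243 genes that had a member and no DHS at the first start, against 366.

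With protein-coding transcripts only, members were 18.6% of internal sites and the first-start share was 66.5%, with a log2 ratio of -0.60 and a CpG ratio of 0.427. With GENCODE basic transcripts only these were 30.1%, 57.5%, -0.42 and 0.486, the count of genes without a DHS at the first start was 242 and the footprint share was 89.8%. With complete coding transcripts only, an alternative added after seeing the data, they were 28.4%, 59.5%, -0.52 and 0.446. Each set redefines the internal sites, so the first-start share covers only genes that still have such a site. The first start of a gene was taken from all its transcripts throughout. Segments of significant cleavage over 50% of the window, in place of a peak, were present in both libraries at 2.11% of internal sites.

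With each library alone, the internal share was 10.9% to 16.3%, the first-start share 73.8% to 76.4%, the share of moved windows 4.11% to 8.68%, the count of genes 445 to 521, the log2 ratio -1.0 to -0.91, the CpG ratio 0.298 to 0.340 and the footprint share 88.1% to 91.2%. The higher shares were those of replicate 2, which has more peaks. No paired analysis was possible because there is 1 group. The depth of either library is unknown, so a site without a peak may be open below what was detected.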

Other observations

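Some CpG-rich internal start sites had no peak. Of internal sites with a CpG ratio above 0.6, 338 were members and 68 had no peak in either library. A complete protein-coding transcript starts at 32 of the 68. The genes named here were picked from the 68 after their values were seen and stand for no theme, and the set also holds genes of neurons such as Ank3 and Foxp1. Hoxd3, a homeobox gene of the body axis, had a ratio of 0.831, and Tbx15, a T-box factor of the limb and skeleton, had 0.759 at 13.4 kb. Runx1, a factor of blood formation, had 0.811 at 130.0 kb with a DHS at the first start in 1 library, and Gata4, a factor of heart and endoderm, had 0.661 at 26.4 kb. Fgf4, a growth factor of the early embryo, had 0.771 at 14.0 kb, and Esr1, the estrogen receptor alpha gene, had 0.740 at 101.1 kb. No complete protein-coding transcript starts at the sites of Esr1, Foxp1 and Ank3.

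For 33 of the 68 sites the gene's first start had a DHS in both libraries. Ank1, an ankyrin best known from red cells and muscle, had a ratio of 0.758 at a site without a peak 83.4 kb downstream where 5 transcripts start. Dab2ip, a Ras GTPase activator, had 2 such sites, with ratios of 0.635 and 0.626.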
